A study of Mus musculus with 16 samples.

Results

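Cux1 and Cux2 encode cut homeobox transcription factors, and they were read here in mouse retinas that had or lacked the transcription factor GTF2IRD1. All rows of the array table annotated to either gene were taken, which gave 4 of 115830 rows, 3 for Cux2 and 1 for Cux1. A row is a transcript cluster, a group of exon probes summarised to 1 value per array. The genes were selected on values of these arrays, namely the difference between null and WT retinas, so that difference is given below as a description and is not tested. The tests concern age, the interaction of age with genotype, the neighbouring genes and gene lists. The interaction is built from the same difference at each age, so its values for the Cux rows are also read as a description. The age comparison in null uses null arrays that entered the choice, and its values for the Cux rows are read in the same way.

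The study compared Gtf2ird1 null (BEN-NULL) and WT mouse retinas at 2 weeks and 4 months, with 4 biological replicates in each of the 4 groups and 16 arrays in all. Retinas were extracted one by one, so the tests set group differences against the spread between single retinas. Whether any retinas of a group shared a mouse was not examined. Every null sample carries the Gtf2ird1 null allele and every WT sample lacks it. Strain, sex and the structure of the allele are not given in the sources used here, and the older group is named 4 months after the titles, although the growth protocol names 2 months. In tissue of many cell types, a change in the number of cells and a change in RNA per cell cannot be told apart.

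CUX proteins bind DNA through cut repeats and a homeodomain, and they are the mammalian relatives of the Drosophila protein Cut, which specifies external sense organs in the fly. CUX1 is widely expressed, acts largely as a repressor and is cleaved to shorter forms in dividing cells. CUX2 is best known as a marker of upper-layer neurons of the cerebral cortex, where both proteins take part in dendrite branching and spine formation. GTF2IRD1 belongs to the TFII-I family and binds short elements with the core GATTA, or the same core ending in G.

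The promoters are shown because both genes lie on chromosome 5, as does Gtf2ird1, and because Cux2 has more than 1 annotated start. Of the promoters in RefSeq (GRCm38.p6), 2 belong to Cux2 and 1 to Cux1, each with 250 bases before and 50 after the start, on the minus strand. They are at chr5:122049802-122050101 and chr5:122047776-122048075 for Cux2 and at chr5:136565932-136566231 for Cux1. Capitals mark matches, on either strand, to the GTF2IRD1-type motifs, which are GGATTA, its variant with a last G, GGATTG, the same element opening with A, AGATTA, and its own variant with a last G, AGATTG, or to the CUX-type motif ATCGAT, with all else in lower case. The first Cux2 promoter holds none of these motifs.
Cux2 promoter 1: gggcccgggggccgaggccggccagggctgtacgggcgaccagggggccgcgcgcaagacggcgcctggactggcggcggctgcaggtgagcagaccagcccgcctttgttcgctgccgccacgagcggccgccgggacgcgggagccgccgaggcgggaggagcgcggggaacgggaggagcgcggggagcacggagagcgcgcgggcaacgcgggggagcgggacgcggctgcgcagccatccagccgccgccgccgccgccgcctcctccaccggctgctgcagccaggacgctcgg
Cux2 promoter 2: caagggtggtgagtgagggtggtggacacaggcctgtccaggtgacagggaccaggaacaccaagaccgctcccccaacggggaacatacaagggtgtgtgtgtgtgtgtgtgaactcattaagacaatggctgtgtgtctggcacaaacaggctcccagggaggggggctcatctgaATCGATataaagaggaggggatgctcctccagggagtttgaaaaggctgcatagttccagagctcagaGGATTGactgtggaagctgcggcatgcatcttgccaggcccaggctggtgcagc
Cux1 promoter: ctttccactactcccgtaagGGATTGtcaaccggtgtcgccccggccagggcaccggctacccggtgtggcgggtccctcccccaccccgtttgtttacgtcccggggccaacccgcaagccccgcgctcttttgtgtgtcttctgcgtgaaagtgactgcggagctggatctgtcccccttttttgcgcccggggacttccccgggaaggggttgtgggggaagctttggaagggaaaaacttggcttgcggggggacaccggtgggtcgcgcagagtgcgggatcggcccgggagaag

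Cux2 promoter 1 had 80.3% G and C and 48 CpG dinucleotides, against medians of 52.7% and 7 over 32851 promoters. Cux2 promoter 2 was unlike it, with 56.7% G and C and 4 CpGs. It held ATCGAT with its first base at -72 from the start and GGATTG at -4. The Cux1 promoter had 65% G and C, 25 CpGs and GGATTG at -230. GGATTG was found in 10.4% of all promoters, GGATTA in 7.06%, AGATTA in 8.19%, AGATTG in 9.31% and at least 1 of these 4 motifs in 30.1%, while ATCGAT, which reads the same on both strands, was in 0.925%. CCAAT, a box that CUX1 can occupy as a repressor, was also searched and stood in 37.4% of promoters and in none of these 3. A match is a run of letters and not a measured binding site. The rows of the array are not tied here to either Cux2 start.

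The labels were first checked on the targeted gene. Of 4 Gtf2ird1 rows, 3 were 13.5-fold to 25.9-fold lower in null retinas, with no overlap of the groups at either age (two-sided exact permutation test, p = 0.0286 for each, the smallest that 4 against 4 arrays allow). Their null means, 4.71 to 5.06, lay below the lowest array median, 5.31, and the values used here give no background level, so these folds may be lower bounds. The row 7008782 was instead 0.17 higher on the log2 scale at 2 weeks (exact p = 0.0286) and 0.03 higher at 4 months (exact p = 0.657). Array medians were 5.31 to 5.55 on the log2 scale, and arrays correlated with each other at 0.9501 to 0.9915 across rows. Xist signal was present in 2 of 4 WT arrays of 2 weeks, 1 of 4 WT arrays of 4 months and 0 of 8 null arrays. WT replicate 1 of 2 weeks had the highest median and the lowest weight in a fit that weights arrays, 0.246.

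Cux2 signal was higher in null than in WT retinas at both ages in 1 of its 3 rows. In row 6941710, WT arrays of 2 weeks read 6.62, 6.75, 7.02 and 6.78 on the log2 scale for replicates 1 to 4, and null arrays of 2 weeks read 8.50, 8.79, 9.08 and 8.60. WT arrays of 4 months read 6.84, 6.75, 7.15 and 6.72, and null arrays of 4 months read 9.46, 9.43, 9.30 and 9.36. All 8 null arrays lay above all 8 WT arrays, and no array came near the gap between them.

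The mean of row 6941710 was 6.79 ± 0.169 (SD, n = 4) in WT and 8.74 ± 0.255 in null at 2 weeks, a difference of 1.95 on the log2 scale or 3.86-fold. At 4 months the means were 6.86 ± 0.194 and 9.39 ± 0.0727, a difference of 2.52 or 5.75-fold. Over all 29 alternative settings the difference ran from 1.84 to 2.03 at 2 weeks and from 2.48 to 2.62 at 4 months. Several of these settings cannot change a difference of means, so the range describes only those that can. In order of their means, the groups were WT of 2 weeks, WT of 4 months, null of 2 weeks and null of 4 months. The neighbours WT of 2 weeks and WT of 4 months overlapped, and the other neighbours did not.

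**Figure D1:**
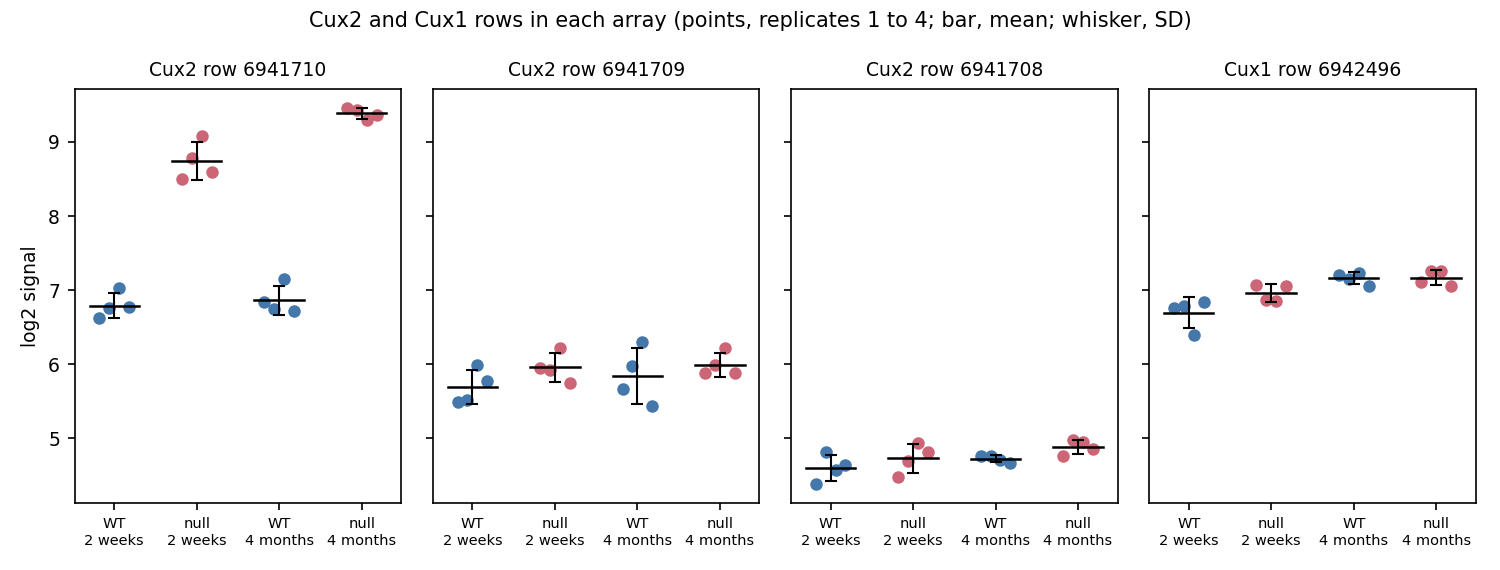
Log2 signal (vertical axis) of the 3 Cux2 rows and the Cux1 row in the 4 groups, 1 point per array (WT blue, null red), with the mean as a bar and the SD as a whisker. In row 6941710 the 8 null arrays, from 8.50 to 9.46, stand above the 8 WT arrays, from 6.62 to 7.15. In the other rows the null and WT groups of the same age overlap or nearly touch.

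In the other Cux2 rows the genotype groups overlapped at both ages. Row 6941709 read 5.49, 5.52, 5.98 and 5.78 in WT and 5.94, 5.92, 6.22 and 5.75 in null at 2 weeks. At 4 months it read 5.67, 5.98, 6.30 and 5.43 in WT and 5.88, 5.99, 6.22 and 5.88 in null. The means were 0.27 higher in null at 2 weeks and 0.15 higher at 4 months. WT replicates 3 and 4 of 4 months were the highest and the lowest of all 16 arrays in this row, and the SD of their group was 0.377.

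Row 6941708 read 4.38, 4.81, 4.58 and 4.64 in WT and 4.48, 4.69, 4.94 and 4.81 in null at 2 weeks. At 4 months it read 4.75, 4.76, 4.71 and 4.67 in WT and 4.76, 4.98, 4.94 and 4.86 in null. The groups overlapped at both ages, by little at 4 months, where the lowest null array stood just below the highest WT array. The means were 0.13 and 0.16 higher in null. All values of this row were below the lowest array median, 5.31. The levels of different rows are not compared, since each row has its own probes.

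Cux1 was measured by 1 row, 6942496, whose genotype groups were apart at 2 weeks by a narrow gap and overlapped at 4 months. WT arrays of 2 weeks read 6.76, 6.79, 6.39 and 6.84, and null arrays read 7.06, 6.86, 6.86 and 7.06. The groups did not overlap, but the lowest null array, 6.857, was close to the highest WT array, 6.844. WT arrays of 4 months read 7.21, 7.15, 7.23 and 7.05, and null arrays read 7.11, 7.25, 7.26 and 7.06, and the groups overlapped.

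The Cux1 means were 6.70 ± 0.208 in WT and 6.96 ± 0.117 in null at 2 weeks (SD, n = 4), a difference of 0.27, and 7.16 ± 0.0808 and 7.17 ± 0.101 at 4 months, a difference of 0.01. Replicate 3 of the WT group of 2 weeks was the lowest of all arrays, and without it the difference at 2 weeks was 0.16. At 2 weeks 2 of the 4 Cux rows had groups that did not overlap, against 4.95% of all rows, and at 4 months 1 of 4, against 3.92%. Since the genes were chosen on this contrast, nothing is read from those counts.

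With age, Cux2 row 6941710 rose in null retinas and Cux1 rose in WT retinas. Cux2 row 6941710 was 0.65 higher at 4 months than at 2 weeks in null (SE 0.130, 95% confidence interval 0.37 to 0.92, limma adjusted p = 0.0115), a 1.56-fold rise, and the lowest array of 4 months, 9.30, lay above the highest of 2 weeks, 9.08. In WT it differed by 0.07 (SE 0.130, interval -0.20 to 0.35, adjusted p = 0.833). The null arrays of both ages had entered the choice of the genes, so the age test in null is not independent of that choice. Its p-values and intervals for the Cux rows are given as a description. Cux1 was 0.47 higher at 4 months in WT (SE 0.104, interval 0.24 to 0.69, adjusted p = 0.0151), a 1.38-fold rise, and 0.21 higher in null (interval -0.01 to 0.43, adjusted p = 0.358).

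Of the 4 Cux rows, 1 was called higher with age in WT, against 3.67% of all rows, and 1 in null, against 2.27%. Groups that did not overlap with age were seen in 1 of 4 rows in WT, against 9.72% of all rows, and in 1 of 4 in null, against 12.1%. Cux2 row 6941709 differed with age by 0.15 in WT (adjusted p = 0.705) and 0.03 in null (adjusted p = 0.966). Row 6941708 differed by 0.12 (adjusted p = 0.614) and 0.16 (adjusted p = 0.561). Neither row passed the threshold.

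Whether the change with age differed between the genotypes was tested as an interaction, and it passed in 0 of the 4 rows (limma, 1 of 4 at an unadjusted p under 0.05), against 0.0173% of all rows. For Cux2 row 6941710 the rise in null exceeded that in WT by 0.57 (SE 0.184, interval 0.18 to 0.96, unadjusted p = 0.00665, adjusted p = 0.743). For Cux1 the rise in null was smaller than that in WT by an interaction of -0.26 (interval -0.57 to 0.06, adjusted p = 0.959). The interactions of rows 6941709 and 6941708 were -0.12 (adjusted p = 0.987) and 0.03 (adjusted p = 0.994). Over 115830 rows, 20 passed and 6236 had an unadjusted p under 0.05. The interaction equals the null minus WT difference at the older age less that at the younger age. The genes were selected on the null minus WT difference, so the interaction is not independent of that choice. Its p-values and intervals for the Cux rows are therefore given as a description, and no conclusion is drawn from them.

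**Figure D2:**
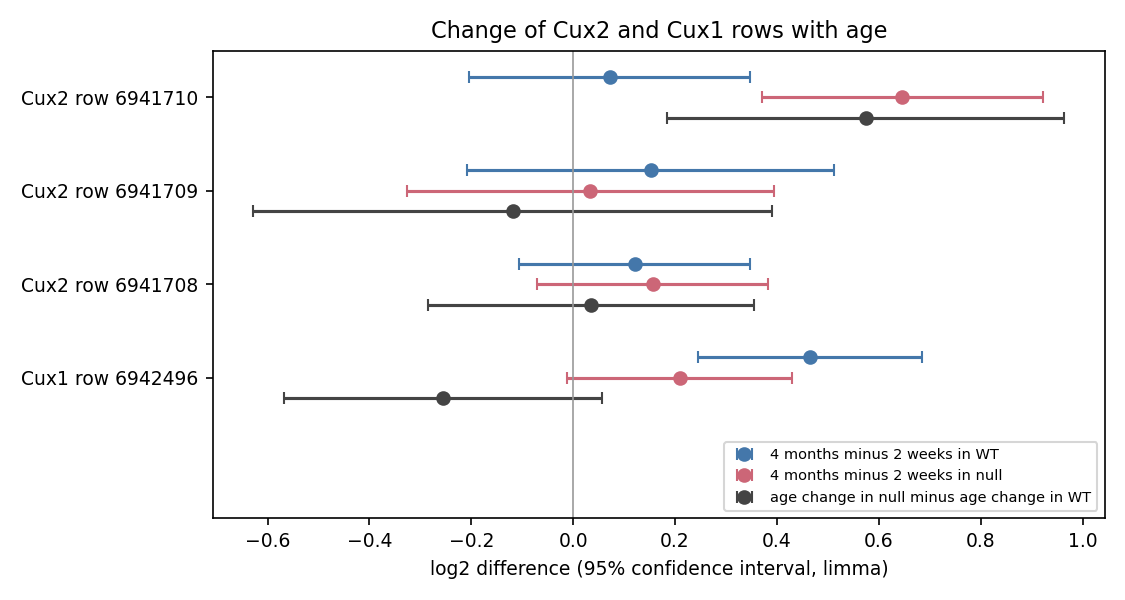
Log2 difference with age (horizontal axis) with its 95% confidence interval from limma for each Cux row, in WT, in null, and as the change in null minus the change in WT. The intervals of Cux2 row 6941710 in null (0.37 to 0.92) and of Cux1 in WT (0.24 to 0.69) lie above 0.

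Both age calls were lost under 1 of 29 alternatives each. The rise of Cux1 in WT had an adjusted p of 0.0907 when only the 8 WT arrays were fitted, and ranged from 0.36 to 0.61 over all alternatives. The rise of Cux2 in null was 0.62 with an adjusted p of 0.0653 when the mean of lens markers was a covariate. Without WT replicate 3 of 2 weeks, the lowest Cux1 array, the rise of Cux1 in WT was 0.36 (adjusted p = 0.0454).

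The rows of the members were compared among themselves after group means were subtracted, so that genotype and age did not enter. Over 16 arrays, Cux2 rows 6941710 and 6941709 had a Pearson r of 0.669, and rows 6941710 and 6941708 one of 0.405. In 3 of the 4 groups the array with the highest reading in row 6941710 was replicate 3, which also had the highest reading in row 6941709. Cux2 row 6941710 and Cux1 had an r of -0.453. These values describe 16 arrays that share processing and carry no test.

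No other CUT-class gene that was measured was called between genotypes. Onecut1, Onecut2 and Onecut3 encode factors with a single cut domain that act in horizontal cell and ganglion cell genesis, and Satb1 encodes a chromatin organiser with cut domains. Each gene here is read by its brightest row. At each age 0 of these 4 genes were called in limma (1 of 4 at an unadjusted p under 0.05), against 0.77% of gene rows at 2 weeks and 0.291% at 4 months, where a gene row is the brightest row of each of 20259 genes. The median difference was 0.02 at 2 weeks and -0.14 at 4 months, against -0.02 and -0.004 over all gene rows.

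Onecut1 row 6990510 had a mean of 6.39 ± 0.126 in WT and 6.75 ± 0.0800 in null at 2 weeks (SD, n = 4), a difference of 0.36 without overlap of the groups (limma adjusted p = 0.132), against 5.82% of gene rows without overlap. At 4 months the difference was -0.07 (adjusted p = 1). In WT it rose with age by 0.40 (adjusted p = 0.0272), against 6.78% of gene rows called in WT, though the call was lost in 10 of 29 alternatives. The other Onecut1 row, 6990509, differed by -0.02 between genotypes at 2 weeks (adjusted p = 0.97). With age in WT that row differed by -0.13 (adjusted p = 0.512). Onecut3 was 0.42 higher at 4 months in WT (adjusted p = 0.0582). The 8 Onecut2 rows overlapped between null and WT at both ages, with differences from -0.35 to 0.52 at 2 weeks and from -0.42 to 0.05 at 4 months. Satb1 differed by 0.008 and -0.14.

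Genes reported to be regulated by CUX proteins, or to process them, were read as a list of 12, of which 10 were measured. Between null and WT, 0 of 10 were called at either age (limma, 2 at 2 weeks and 0 at 4 months at an unadjusted p under 0.05), with medians of 0.07 and 0.008. Of all gene rows, 0.77% at 2 weeks and 0.291% at 4 months were called, and 11.4% and 4.87% had an unadjusted p under 0.05. With so few of all gene rows called, nothing is read from the count of 0. At 2 weeks Wnt5a, which encodes a secreted signalling protein, differed by 0.56 (adjusted p = 0.175), and Ncam1, a neural cell adhesion molecule, by 0.29 (adjusted p = 0.321). Cdkn1a and Cdkn1b, cyclin-dependent kinase inhibitors that CUX1 is known to repress, differed by 0.10 (adjusted p = 0.827) and -0.09 (adjusted p = 0.818) at 2 weeks. Ctsl, the protease that trims CUX1, differed by 0.11 (adjusted p = 0.940).

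With age, 3 of these 10 genes were called in WT, against 6.78% of gene rows, and 2 in null, against 6.3%. In WT, Ncam1 rose by 0.58 (adjusted p = 0.00524), Pola1, a DNA polymerase subunit, rose by 0.48 (adjusted p = 0.0490) and Cdkn1b fell by 0.53 (adjusted p = 0.00972). In null, Cdkn1b fell by 0.45 (adjusted p = 0.0346) and Wnt5a fell by 0.82 (adjusted p = 0.0123). The Pola1 call was lost in 20 of 29 alternatives and the Cdkn1b call in null in 10.

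Genes that accompany Cux2 in upper-layer cortical neurons were not called between genotypes. Of 6 measured, 0 were called at either age (limma, also 0 at an unadjusted p under 0.05), with medians of -0.12 at 2 weeks and -0.04 at 4 months. Since 0.77% of all gene rows were called at 2 weeks and 0.291% at 4 months, nothing is read from the count of 0. Pou3f2 and Pou3f3, POU homeobox genes, differed by -0.29 and -0.14 at 2 weeks, and Rorb, a nuclear receptor gene, by 0.09. Mdga1, a cell adhesion gene of these neurons, rose by 0.66 with age in WT (adjusted p = 0.00961).

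Among 24 measured homeobox genes of the retina, 1 was called at 2 weeks and 0 at 4 months (limma, 6 and 2 at an unadjusted p under 0.05), with medians of -0.05 and -0.04. Of all gene rows, 0.77% and 0.291% were called and 11.4% and 4.87% had an unadjusted p under 0.05. Lhx9, a LIM homeobox gene, rose by 0.95 in null at 2 weeks (adjusted p = 0.0184), a call lost in 5 of 29 alternatives. Lhx1, a horizontal cell gene, differed by -0.29 at 2 weeks (adjusted p = 0.223) and -0.35 at 4 months (adjusted p = 0.299). With age in WT, where 6.78% of gene rows were called, 4 of the 24 were called: Pax6, Isl1 and Pou4f3 fell by 0.56, 0.51 and 0.87 and Meis2 rose by 0.76. In null, where 6.3% were called, 3 were: Isl1 and Pou4f3 fell by 0.61 and 0.63 and Meis2 rose by 0.50. The calls in null were lost in 10 of 29 alternatives for Pou4f3, 5 for Meis2 and 0 for Isl1, and the Pax6 call in WT in 2. Pou4f2 was not analysed here. In the TFII-I family, Gtf2i and Gtf2ird2 differed between genotypes by at most 0.23 and were not called.

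Cux2, Gtf2ird1 and Cux1 lie in this order on chromosome 5, with 118 protein-coding genes between Cux2 and Gtf2ird1 and 49 between Gtf2ird1 and Cux1. Of the 20 measured genes nearest to Cux2, 10 on each side, 0 were called between null and WT at either age (limma, 3 at 2 weeks and 0 at 4 months at an unadjusted p under 0.05). Of all gene rows, 0.77% at 2 weeks and 0.291% at 4 months were called, and 11.4% and 4.87% had an unadjusted p under 0.05. The differences of the 20 genes ran from -0.44 to 0.41 at 2 weeks and from -0.20 to 0.16 at 4 months. The nearest on one side were Pheta1, Sh2b3, Atxn2, Brap and Aldh2 and on the other Myl2, Ccdc63, Ppp1cc, Hvcn1 and Tctn1. Pheta1 differed by -0.03 and 0.07 at the respective ages, and Myl2 by -0.12 and 0.10.

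At 2 weeks 2 of the 20 genes near Cux2 had groups that did not overlap, Atxn2, higher by 0.27 in the mean (adjusted p = 0.255), and Mapkapk5, lower by 0.24 in the mean (adjusted p = 0.371), against 5.82% of gene rows. At 4 months 1 did, Gpn3 (-0.12, adjusted p = 1), against 4.73% of gene rows. Near Cux1, 0 of 20 genes were called at either age, against 0.77% and 0.291% of gene rows (limma, 1 and 0 at an unadjusted p under 0.05). The differences of these genes ran from -0.29 to 0.36 at 2 weeks and from -0.34 to 0.30 at 4 months. The nearest were Sh2b2, Prkrip1, Orai2, Alkbh4 and Lrwd1 on one side and Myl10, Col26a1, Ift22, Fis1 and Cldn15 on the other. Groups did not overlap for 1 of the 20 at 2 weeks, Dtx2 (0.36), and 1 at 4 months, Upk3bl (-0.34), against the same 5.82% and 4.73% of gene rows. No neighbour of either gene was called between genotypes in any of the 29 alternatives.

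**Figure D3:**
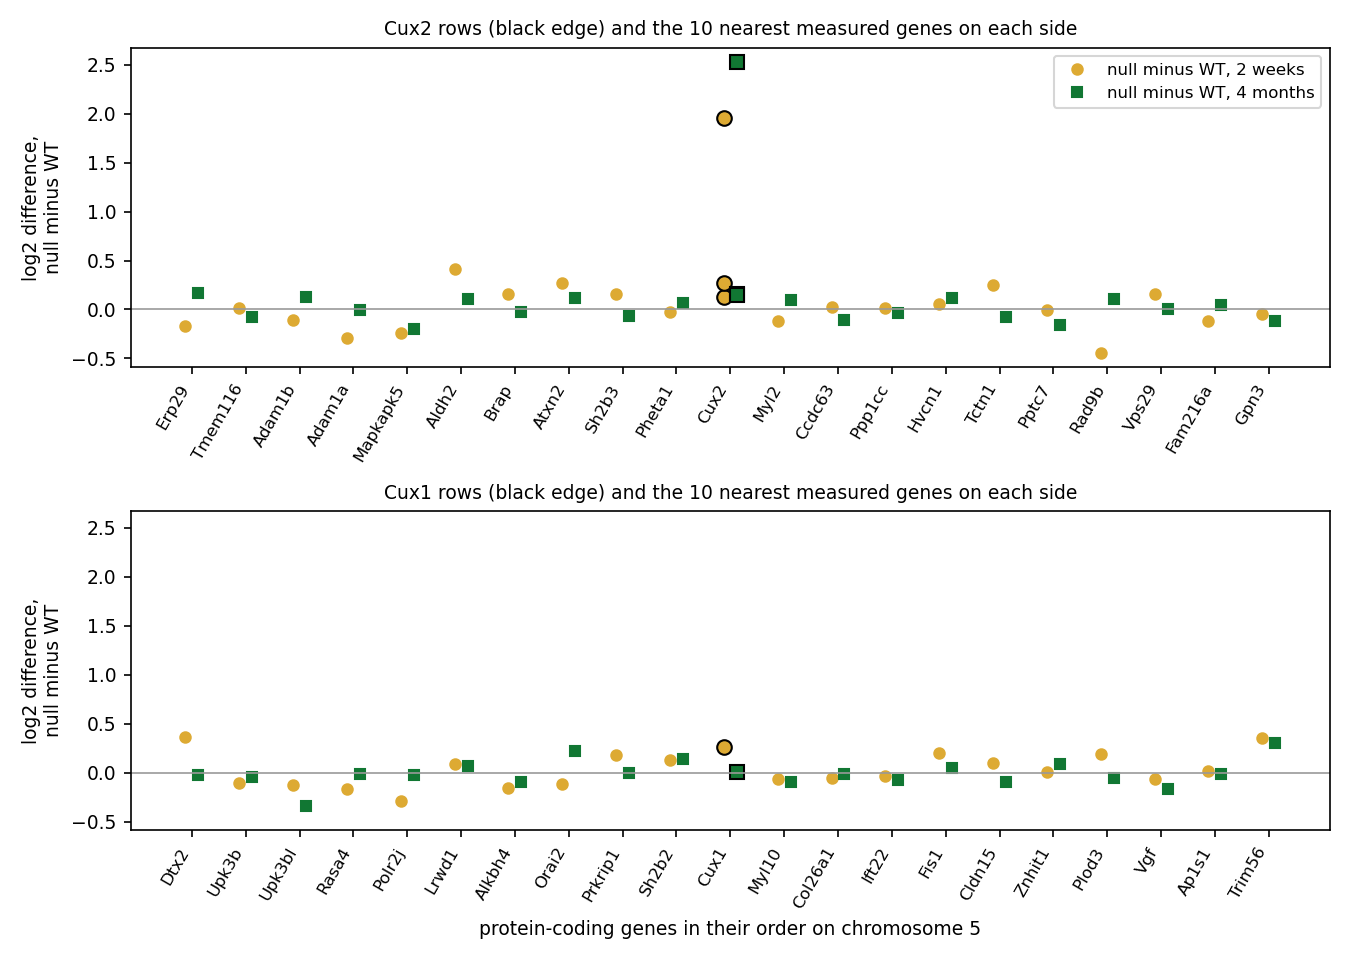
Log2 difference of null minus WT (vertical axis) at 2 weeks and 4 months for the Cux2 rows and the Cux1 row (black edge) and the 10 nearest measured protein-coding genes on each side, in chromosome order. Cux2 row 6941710 stands at 1.95 and 2.52, while the 20 genes around Cux2 lie between -0.44 and 0.41.

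With age, 2 of the 20 genes near Cux2 were called in WT, Tmem116, higher by 0.60, and Ccdc63, higher by 0.46, against 6.78% of gene rows. In null 1 was called, Rad9b, higher by 0.65, against 6.3% of gene rows. Near Cux1, 1 of 20 genes was called in each genotype: Fis1, which encodes a mitochondrial fission protein, rose by 0.46 in WT, and Plod3, which encodes a collagen-modifying enzyme, fell by 0.47 in null. In null, Fis1 was 0.31 higher (adjusted p = 0.110).

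The genes whose pattern over the 16 arrays was most like that of Cux2 row 6941710 were found among 17368 genes of known name by Pearson r. They were Rxfp1 (0.965), a relaxin receptor, Haus8 (0.959), a mitotic spindle protein, Igfn1 (0.958), Mmp17 (0.926), a membrane-bound matrix metalloproteinase, and Dnajb14 (0.905), a chaperone partner. Ncapg2 (0.905), a condensin subunit, Zan (0.884), Ano6 (0.880), a lipid scramblase, Plpp2 (0.873) and Myo9b (0.869), a myosin, followed. Least like it were Ppara (-0.930), a fatty acid sensor, Dnah9 (-0.925), an axonemal dynein, Ercc5 (-0.912), a DNA repair nuclease, Lrrc2 (-0.902) and Gbp7 (-0.888). Since Cux2 splits the arrays by genotype, these values mainly rank genes by how far they do the same, and they carry no test.

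Mmp17 was the one gene of these 15 with an r above 0.5 after group means were subtracted (0.687). Rxfp1 then had -0.423, and the others lay between -0.207 and 0.483. Mmp17 and Zan lie on chromosome 5, like Cux2, and the other 13 on other chromosomes. The group means of Rxfp1 were 4.90 and 6.07 at 2 weeks in WT and null and 4.82 and 6.69 at 4 months, in the same order of null groups as Cux2.

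For Cux1 the most like genes were Gorasp2 (0.936), which encodes a Golgi stacking protein, Kat6b (0.924), a histone acetyltransferase, Elovl6 (0.921), a fatty acid elongase, Rere (0.919), a corepressor, and Epha4 (0.918), an ephrin receptor. The least like were Ifnb1 (-0.927), an interferon, Nhlh2 (-0.915), a neuronal transcription factor, Ctse (-0.904), a protease, Trim68 (-0.884) and Tram1l1 (-0.882). With group means subtracted, r was between 0.680 and 0.848 for the first 5 and between -0.759 and -0.529 for the last 5. WT replicate 3 of 2 weeks, the lowest Cux1 array, was also the array farthest from the mean in each of these 10 genes, and without it r was 0.836 to 0.910 and -0.888 to -0.808.

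**Figure D4:**
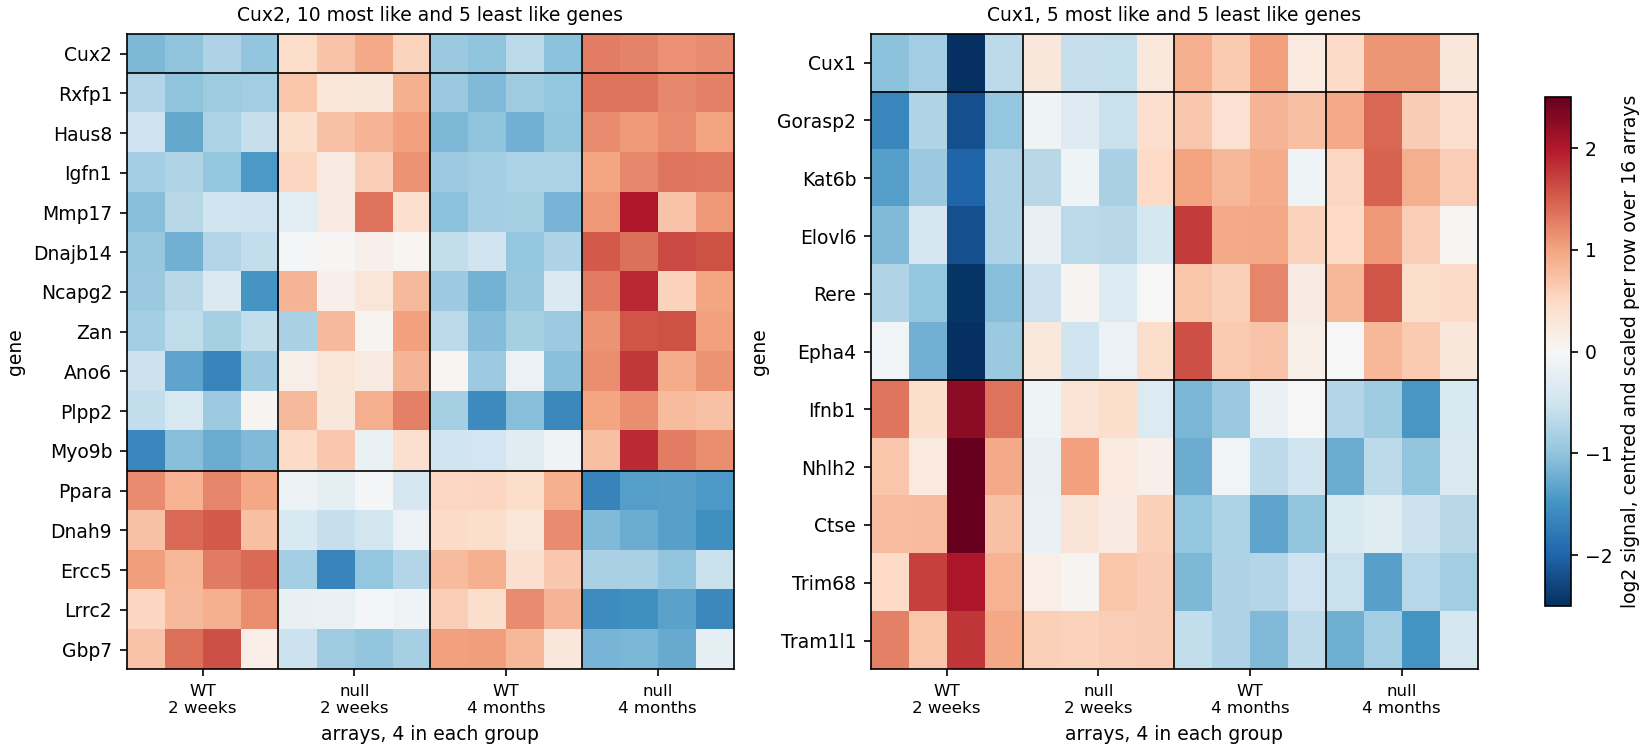
Signal of Cux2 row 6941710 (left) and Cux1 row 6942496 (right) and of the genes most and least like each, centred and scaled per row over the 16 arrays (colour, in SD units), with 4 arrays in each group. The Cux2 panel changes with genotype. In each row of the Cux1 panel the null mean of 2 weeks lies between the WT mean of 2 weeks and both means of 4 months. Single arrays of these groups overlap in some rows, and WT replicate 3 of 2 weeks is the most extreme array.

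Markers of other tissues and cells also differed between groups in some comparisons. All 12 lens markers were above 0 in the mean difference of null and WT at 2 weeks (median 1.91, 0 called in limma, 7 at an unadjusted p under 0.05), and their summed linear signal was 8230 to 28000 in WT and 20200 to 66000 in null. Of all gene rows, 0.77% were called at 2 weeks and 11.4% had an unadjusted p under 0.05. At 4 months the sums were 7200 to 28300 and 8740 to 38000, and the median difference was 0.30. With the lens mean as a covariate, Cux2 row 6941710 differed between genotypes by 1.98 at 2 weeks and 2.53 at 4 months, against 1.95 and 2.52 without it. With age in null the 12 lens markers were all below 0 (median -1.51, 2 called lower, against 3.97% of gene rows), and with the covariate the rise of Cux2 in null was no longer called, as given above.

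Pigment epithelium markers summed to 809 to 1970 in WT and 2020 to 3700 in null at 2 weeks, where Tyr rose by 0.94 and Pmel by 0.79, and to 474 to 760 and 333 to 1020 at 4 months, where 0 of 9 were called (limma, 0 at an unadjusted p under 0.05). The Tyr call was lost in 5 of 29 alternatives and the Pmel call in 15. In null 5 of these 9 markers fell with age, against 3.97% of gene rows called lower. Of 9 cone markers, 2 were called at 2 weeks and 1 at 4 months (limma, 5 and 2 at an unadjusted p under 0.05). Of all gene rows, 0.77% and 0.291% were called. Pde6h fell by 1.54 and Arr3 by 0.59 in null at 2 weeks, and Pde6h fell by 1.13 at 4 months. At 2 weeks 6 of the 9 differences were below 0 and 3 above, among them Opn1sw (0.30, limma adjusted p = 0.152). At 4 months 5 were below 0 and 4 above. The Arr3 call was lost in 19 of 29 alternatives, that of Pde6h in 0 at 2 weeks and in 5 at 4 months. Summed cone signal was 18100 to 23500 in WT and 19000 to 20800 in null at 2 weeks and 19100 to 19900 and 18000 to 20200 at 4 months. Beyond the fit with the lens covariate, the part of lens, pigment epithelium and cone cells in the Cux2 and Cux1 values was not tested.

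The rod list, which marks the retina, summed to 49500 to 60700 over all arrays, with 0 of 9 genes called between genotypes at either age (limma, 0 at an unadjusted p under 0.05). For this and the next lists, 0.77% of all gene rows were called at 2 weeks and 0.291% at 4 months. An unadjusted p under 0.05 was seen in 11.4% and 4.87% of them. With so few of all gene rows called, nothing is read from counts of 0. Horizontal cell markers summed to 5990 to 7170 in WT and 7060 to 8590 in null at 2 weeks and to 5470 to 6700 and 5580 to 5920 at 4 months, with 0 of 6 called at either age (limma, 2 at each age at an unadjusted p under 0.05). Among endothelial markers Flt1 rose by 0.69 at 2 weeks, a call lost in 8 of 29 alternatives, and 0 of 8 were called at 4 months (limma, 1 at an unadjusted p under 0.05). In the bipolar, amacrine, ganglion, Muller glia, microglia and progenitor lists 0 genes were called between genotypes at either age (limma, 0 to 3 in each list at an unadjusted p under 0.05). Progenitor sums were 511 to 655 in WT and 667 to 786 in null at 2 weeks, and overlapped at 4 months. Microglia sums overlapped at 2 weeks and were 462 to 490 in WT and 525 to 571 in null at 4 months. Sums of the bipolar, amacrine, ganglion and Muller glia lists overlapped at both ages.

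Markers of retinal and other cells also changed with age, beside the rises of Cux1 in WT and Cux2 in null, in comparisons that called 6.78% and 6.3% of all gene rows. In WT the rod marker Gnat1 (0.28) and the bipolar markers Prkca (0.73) and Trpm1 (0.35) rose. The cone opsin Opn1mw (-0.36), the bipolar marker Scgn (-0.44), the horizontal cell marker Calb1 (-0.77), the amacrine marker Th (-0.81) and the Muller glia marker Slc1a3 (-0.48) were called lower. So were the ganglion cell markers Sncg (-0.58), Nefm (-0.67) and Slc17a6 (-1.23), the microglia markers C1qb (-0.59), C1qc (-0.42) and Csf1r (-0.44), and Pmel (-0.78) and Top2a (-0.32). Of endothelial markers Flt1 was called higher (0.90) and Cdh5 lower (-0.75).

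In null retinas Prph2, a photoreceptor gene (0.60), and Kdr, an endothelial receptor (0.73), were called higher with age. Called lower were Opn1mw (-0.30), Grm6 (-0.55), Scgn (-0.58), Calb1 (-0.91), Th (-0.68), Sncg (-0.62) and Nefm (-0.54). The pigment markers Tyr (-1.12), Tyrp1 (-2.75), Pmel (-1.74), Dct (-2.64) and Mlana (-0.64) and the lens markers Crybb3 (-2.62) and Crygn (-2.89) were lower too. The others called lower were Cdh5 (-1.48), Cldn5 (-0.31), Ocln (-0.83), C1qc (-0.39), Csf1r (-0.43), Mki67 (-0.71) and Top2a (-0.46). In WT the calls of Gnat1, Slc17a6 and Trpm1 were lost in 21, 18 and 14 of 29 alternatives and that of Top2a in 15 of 28. In null the calls of Opn1mw and Prph2 were lost in 22 and 11 of 29, and those of Cldn5 and C1qc in 21 of 28. The part of these cell types in the age changes of Cux1 and Cux2 was not tested.

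The arrays with Xist signal were all WT, so Xist moved with genotype. Leaving out those 3 arrays removed 2 of the 4 WT arrays of 2 weeks. Without them Cux2 row 6941710 differed between genotypes by 1.85 at 2 weeks and 2.48 at 4 months, against 1.95 and 2.52 with them. Cux1 then differed by 0.37 at 2 weeks and -0.03 at 4 months, and its rise with age in WT was 0.61 (adjusted p = 0.0191). Beyond such fits, the part of Xist in the Cux2 and Cux1 values was not tested.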

How the data were processed

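RNA of single retinas was labelled with biotin and hybridised to Affymetrix Mouse Exon 1.0 arrays, per the labels' protocols. The deposited values are on the log2 scale, 1 per transcript cluster and array. Per the submitters' processing notes, the authors used Partek, RMA and the build mm8, whose versions no label or header gives. Base 2 was read from the range of the values, 3.76213 to 15.7311. No further scaling or filter was applied.

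Of 115830 rows, 25539 carried 1 gene symbol, 2300 several and 87991 none, by the platform's annotation, and 3109 genes had several rows. Limma 3.58.1 in R 4.3.3 (lmFit, eBayes) fitted 4 group means to 16 arrays with 12 residual degrees of freedom, with Benjamini-Hochberg adjustment over all rows and calls at an adjusted p under 0.05. Simulated data with known changes in WT of 4 months were used to test the code. There 16.4% of changes of 0.5 on the log2 scale were called, 70.1% of changes of 1 and 92.4% of changes of 2. Small changes can therefore be missed. Gene lists and neighbours use the row with the highest mean of each gene, no filter on low signal, and no set test. Median differences over all rows were under 0.1 in size for every comparison.

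The members and lists were chosen with earlier results of these data known. The text names every Cux1, Cux2 and Gtf2ird1 row, the CUT-class genes, the nearest neighbours, the genes most and least like each Cux row, and the called members of lists. Where a list had none called, smallest-p members are named for the homeobox and CUX-related lists, and marker lists are given as counts. No coordinates of the files' build are given, and a gene table of another assembly served for gene order. Rows were tied to neighbours by annotation alone, so whether each row lies at its gene was not checked. The main fits treat the arrays as unpaired. Correlations of the residuals of same-numbered arrays ran from -0.281 to 0.230, and those of differently numbered arrays from -0.305 to 0.404. These ranges cannot show whether same-numbered arrays shared a litter, day or batch. The number of arrays, 4 a group, limits the precision. Some list members are not reported here.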

Additional observations from a re-analysis of the deposited data

Results flagged for a closer look

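In 84 groups of 4 arrays, 5 had 1 array far from the others (gap to the nearest over the range above Dixon's 95% critical value), about what chance gives at 1 in 20 groups. None was in a Cux1 or Cux2 row. For Gtf2ird1, row 7007348 read 4.95 in null replicate 4 of 4 months, row 7008286 read 9.07 in WT replicate 4 of 2 weeks and row 7008782 read 10.6 in null replicate 3 of 2 weeks, each high for its group. For Onecut2, row 6861552 read a high 7.58 in null replicate 3 of 2 weeks and row 6861558 a low 5.28 in null replicate 4 of 2 weeks.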

How the results depend on the processing

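The alternatives were 13 settings and 16 fits that left out 1 array each. Several cannot change a difference of group means, such as keeping fewer rows or leaving out an array of another group. The setting of an adjusted p under 0.1 cannot lose a call, so counts of calls kept include it. No Cux value called in the tests changed sign. The difference of Cux2 row 6941710 between genotypes ran from 1.84 to 2.03 at 2 weeks and 2.48 to 2.62 at 4 months. Its rise with age in null stayed called in 28 of 29 alternatives and was 0.622 (adjusted p = 0.0653) with the lens covariate. The rise of Cux1 in WT stayed called in 28 of 29 and was 0.465 (adjusted p = 0.0907) with only the arrays compared, where fewer arrays set the spread. With replicate as a block, the rises were 0.646 (adjusted p = 0.0103) and 0.465 (adjusted p = 0.0347), and no call on a Cux row changed. The genotype difference of Cux1 at 4 months ran from -0.03 to 0.05, so it has no settled sign.

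Counts of rows called depended on the settings. In the order null against WT at 2 weeks, at 4 months, age in WT, age in null and interaction, they were 846, 230, 6247, 4136 and 20. Leaving out 1 array gave 398 to 1271, 141 to 319, 3658 to 7721, 2239 to 6130 and 8 to 56. Only rows with 1 gene symbol gave 334, 108, 2381, 2333 and 5, and 1 row a gene gave 214, 83, 1861, 1947 and 2, since fewer rows were tested. Only the arrays compared gave 243 at 2 weeks and 2329 for age in WT. Array weights gave 494 at 4 months, 7803 for age in null and 33 for the interaction. The replicate block gave 8 for the interaction. The Xist covariate gave 518 at 2 weeks, and leaving out the arrays with Xist gave 6291 for age in null. The lens covariate gave 213 at 2 weeks, 1606 for age in null and 6 for the interaction. An adjusted p under 0.1 gave 1500 at 2 weeks, 9778 for age in WT and 6746 for age in null. Apart from the smaller tables, the cause was not tested. The correlations without WT replicate 3 of 2 weeks were added after the data were seen.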
